A study of Homo sapiens with 28 samples.

Results

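Dense clusters are stretches of the genome where several transcription factors bind within a short distance of each other. In GP5d cells, an established human colon adenocarcinoma line, control siRNA peaks of HNF4A, JUND, KLF5, MYC, REST and RFX2 were joined where their edges lay within 1000 bp, and a cluster was called dense when it held peaks of at least 4 of these 6 factors. The rule found 569 dense clusters among 30255 clusters in all (1.88%), beside 21979 clusters of 1 factor, 5638 of 2 factors and 2069 of 3 factors. The clusters were thus chosen by the positions of the control peaks of the 6 factors, and everything said of those peaks is a description. Every comparison of RAD21 siRNA with control siRNA at these clusters carries that choice, since only control peaks entered it.

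The cells were harvested 72 hours after transfection, at 50 nM, of a small interfering RNA (siRNA) directed at RAD21 or of a neutral control siRNA, and chromatin immunoprecipitation followed by sequencing (ChIP-seq) was done for 11 targets under each siRNA. The RAD21 siRNA group (siRAD21) and the control siRNA group shared the cell line, the transfection reagent, the dose and the time, and carried no other stated agent or allele. The labels say that the knockdown was followed by qPCR and western blotting, and no value of it was used here. There was 1 library per target and siRNA, so no difference between the siRNAs has a replicate check, no test was made, and all intervals are 95% intervals that cover counting error only. After removal of repeated positions, the siRAD21 factor libraries held 1747770 to 15263937 tags and the control factor libraries 3629966 to 9603820 tags. For the other 5 targets these were 4163512 to 9953944 tags under siRAD21 and 12025319 to 19926326 under control siRNA. The siRAD21 libraries of RAD21, SMC3, NIPBL, CTCF and H3K4me1 were shallower than the control libraries, and their peak lists were also shorter.

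Cohesin is a ring of subunits, among them RAD21 and SMC3, that holds sister chromatids together and extrudes loops of chromatin. NIPBL loads the ring, and CTCF, a zinc finger protein, halts its movement at many of its sites. Besides sites shared with CTCF, cohesin and its loader are found at active enhancers and promoters where many transcription factors bind, and H3K4me1, histone H3 monomethylated at lysine 4, is a mark of enhancers and of chromatin beside promoters. Of the 6 factors, HNF4A, a nuclear receptor, maintains the differentiated state of gut and liver epithelium, and KLF5, a zinc finger factor, is needed for the proliferating cells of intestinal crypts. JUND belongs to the AP-1 family and MYC is a growth regulator that binds active promoters and enhancers. REST is the repressor that keeps neuronal genes silent in other tissues, and RFX2 is a winged-helix factor known for genes of the cilium. The series asks how such clusters relate to cohesin.

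The antibody numbers in the labels leave a doubt about 2 targets. The number given for the H3K4me1 libraries is known for histone H3 whatever its modification, and that for the MYC libraries is known as a mouse antibody where the library titles name rabbit. All H3K4me1 and MYC values below carry that doubt.

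Dense clusters were wider than clusters of fewer factors. Their median width was 2919 bp, with a range of 1061 to 22251 bp, against medians of 1379, 2032 and 2443 bp for clusters of 1, 2 and 3 factors. The summits of all factors lay within 500 bp of each other in 286 dense clusters (50.3%), and the median spread of the factor summits was 493 bp, with quartiles of 206 and 1744 bp. In 454 dense clusters (79.8%) each factor had a single peak. In 441 dense clusters the peaks overlapped in an unbroken chain, and 58 contained a gap of more than 500 bp between neighbouring peaks. Just inside the joining limit, the largest gap within a dense cluster was 993 bp. Just outside it, the closest neighbouring clusters that together held 4 factors lay 1077 bp apart, and 40 such neighbours lay within 2000 bp. Chromosome 1 held 64 dense clusters, chromosome 2 held 51 and chromosome 17 held 37, which were 2.21%, 2.20% and 2.55% of all clusters on those chromosomes, and 2 dense clusters lay on unplaced contigs.

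One combination dominated. HNF4A, JUND, KLF5 and MYC together, with no other factor, made up 432 of the 569 dense clusters (75.9%), and all 4 were present in 465 (81.7%) once the 5-factor clusters were added. HNF4A with KLF5, MYC and RFX2 followed with 29 clusters and JUND with KLF5, MYC and RFX2 with 20. The remaining combinations with more than 5 clusters were HNF4A, JUND, KLF5, MYC and REST (17), HNF4A, JUND, MYC and RFX2 (17), HNF4A, JUND, KLF5, MYC and RFX2 (16), HNF4A, JUND, MYC and REST (14), and HNF4A, KLF5, MYC and REST (10). The other 7 of the 15 combinations shared 14 clusters. Four-factor clusters numbered 535 and 5-factor clusters 34, and none held all 6 factors.

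MYC was present in 562 dense clusters, HNF4A in 543, KLF5 in 534 and JUND in 528, while RFX2 was present in 93 and REST in 50. The control JUND list was the one most concentrated there, with 545 of its 4678 peaks (11.7%) in dense clusters. The corresponding shares were 7.61% for KLF5, 5.35% for HNF4A, 4.65% for MYC, 4.52% for RFX2 and 1.25% for REST. A false discovery rate (FDR) under 5% was reached by 0 control JUND peaks. It was reached by 13589 MYC, 5983 KLF5, 5343 HNF4A, 2171 REST and 593 RFX2 control peaks. By score, the strongest peaks of every factor but REST, 1 per cluster, ranked higher in dense clusters than elsewhere. Ranked within their own list by the authors' score, −10 × log10 of the MACS p, their median percentiles were 57.5 in dense clusters against 50.2 in other clusters for HNF4A, 69.8 against 48.1 for JUND, 72.2 against 48.9 for KLF5, 71.1 against 50.1 for MYC and 63.4 against 49.4 for RFX2. REST went the other way, with a median percentile of 24.5 in dense clusters against 52.3 elsewhere. The authors' fold enrichment of the same peaks gave another order. Its median was lower in dense than in other clusters for HNF4A (8.78 against 9.65), JUND (6.57 against 7.3), RFX2 (13.25 against 14.4) and REST (6.6 against 16.23), and higher for KLF5 (8.24 against 7.74) and MYC (7.99 against 7.59).

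The 4 common factors also lay on top of each other. In dense clusters the median distance between summits was 134.5 bp for KLF5 and MYC, 146 bp for JUND and MYC, 148.5 bp for HNF4A and KLF5, 154.5 bp for JUND and KLF5, 155 bp for HNF4A and JUND, and 177 bp for HNF4A and MYC. REST stood off from them, with medians of 738 to 950.5 bp to the 4 common factors, and RFX2 lay between, with medians of 364 to 520.5 bp.

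Cohesin, its loader and the histone mark were called at most dense clusters under control siRNA, and at fewer under RAD21 siRNA. A RAD21 peak overlapped 97 of the 569 dense clusters under siRAD21 (17.0%, 14.0 to 20.4) and 354 under control siRNA (62.2%, 58.1 to 66.2). Over all 30255 clusters the shares were 11.9% under siRAD21 and 23.4% under control siRNA. For SMC3 the shares of dense clusters were 11.6% (9.09 to 14.5) under siRAD21 and 72.1% (68.2 to 75.7) under control siRNA, beside 7.55% of all clusters under siRAD21 and 27.4% under control siRNA. For NIPBL they were 27.9% (24.3 to 31.8) under siRAD21 and 89.1% (86.2 to 91.5) under control siRNA, beside 12% of all clusters under siRAD21 and 26.1% under control siRNA. CTCF differed less between the siRNAs, with 24.4% (21.0 to 28.2) of dense clusters under siRAD21 and 32.0% (28.2 to 36.0) under control siRNA, beside 17.4% of all clusters under siRAD21 and 19.9% under control siRNA. H3K4me1 peaks covered nearly all dense clusters under both siRNAs, with 93.5% (91.1 to 95.4) under siRAD21 and 97.0% (95.3 to 98.3) under control siRNA, beside 67% of all clusters under siRAD21 and 70% under control siRNA.

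The differences in RAD21 and SMC3 depended on the length of the lists. The siRAD21 RAD21 list held 19752 peaks and the control list 36204, and the siRAD21 library had 0.615 times the tags of the control library. When the control RAD21 list was cut to its 19752 strongest peaks, the shares of dense clusters overlapped were 17.0% under siRAD21 and 18.3% (15.2 to 21.7) under control siRNA, a difference within the counting intervals. The control RAD21 peaks at dense clusters sat in the weaker part of their list, with a median percentile of 32.4, and most of them were removed by that cut. SMC3 behaved alike, with 11.6% under siRAD21 and 10.5% (8.14 to 13.4) under control siRNA at 12548 peaks each. Such a cut also takes away any shortening of a list by the knockdown itself. It cannot tell knockdown from depth, and their parts were not tested. CTCF overlapped 24.4% of dense clusters under siRAD21 and 19.9% (16.7 to 23.4) under control siRNA at 32196 peaks each, the reverse of the order with all peaks.

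NIPBL kept its difference at equal length. At 6068 peaks each, NIPBL overlapped 27.9% of dense clusters under siRAD21 and 77.0% (73.3 to 80.4) under control siRNA. In clusters of 1 to 3 factors the same lists gave 11.7% (11.4 to 12.1) under siRAD21 and 14.8% (14.4 to 15.2) under control siRNA. Most of these were clusters of 1 factor, with 8.93% under siRAD21 and 7.49% under control siRNA. The difference was also present in clusters of 2 factors (18.5% siRAD21, 29.1% control) and of 3 factors (23.0% siRAD21, 53.9% control). The control NIPBL peaks at dense clusters ranked high in their list, with a median percentile of 81.8. The siRAD21 NIPBL library had 0.352 times the tags of the control library, and an FDR under 5% was reached by 1441 siRAD21 NIPBL peaks and by 0 control NIPBL peaks. The dense clusters were chosen from control lists, and all but that of RFX2 shared the rabbit immunoglobulin G (IgG) library of control NIPBL. The part of depth, of the IgG background and of that choice in the NIPBL difference was not tested. H3K4me1 at 53581 peaks each overlapped 93.5% of dense clusters under siRAD21 and 95.6% (93.6 to 97.1) under control siRNA.

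**Figure D1:**
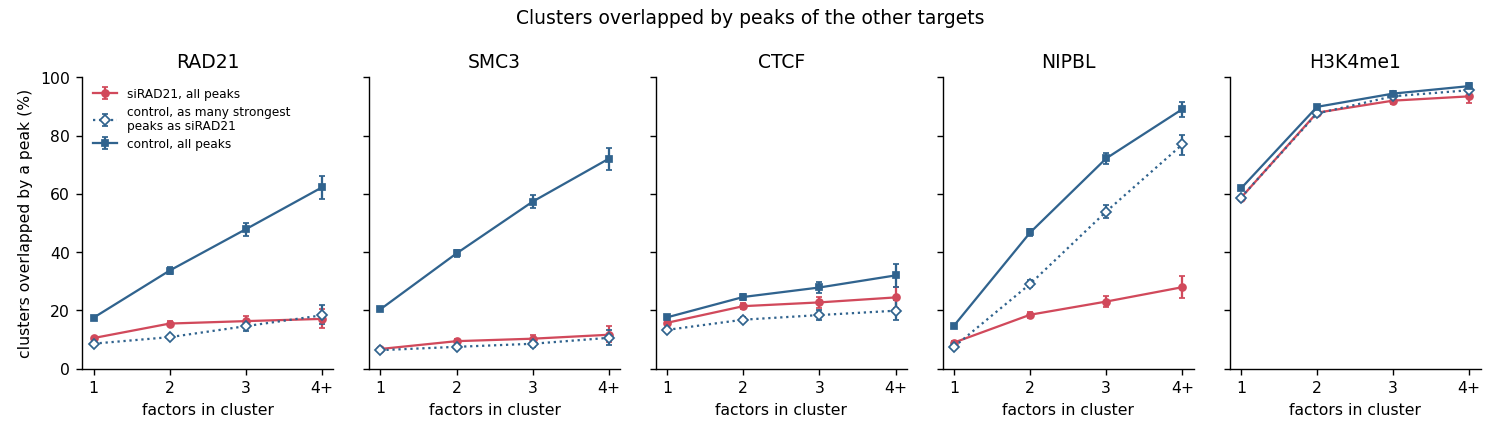
Share of clusters (%) overlapped by a peak of each of 5 targets, by the number of factors in the cluster (1, 2, 3, or 4 and more, the dense clusters). Red circles are siRAD21 lists, open blue diamonds are the strongest control peaks at the length of the siRAD21 list, filled blue squares are all control peaks, and bars are 95% counting intervals. At dense clusters the red and open points lie close together for RAD21 (17.0% siRAD21, 18.3% control) and SMC3 (11.6% siRAD21, 10.5% control), while for NIPBL they part with factor number (27.9% siRAD21, 77.0% control).

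The control shares climbed with the number of factors. Control RAD21 peaks overlapped 17.5%, 33.7%, 47.8% and 62.2% of clusters of 1, 2, 3 and at least 4 factors, and control NIPBL peaks 14.8%, 46.7%, 72.2% and 89.1%. Among the dense clusters, control RAD21 peaks overlapped 63.0% (58.7 to 67.1) of the 535 with 4 factors and 50.0% (32.4 to 67.6) of the 34 with 5 factors, and control NIPBL peaks 89.3% and 85.3%. Under siRAD21 the corresponding shares were 10.5%, 15.4%, 16.3% and 17.0% for RAD21 and 8.93%, 18.5%, 23.0% and 27.9% for NIPBL. Wider clusters meet more peaks, so the shares were also taken in a window of 500 bp on either side of the strongest factor summit. In that window RAD21 was found at 13.4% of dense clusters under siRAD21 and 56.4% under control siRNA, against 10.7% of clusters of 1 to 3 factors under siRAD21 and 21.6% under control siRNA.

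Where RAD21 and NIPBL were called, they lay close to the factors. From the strongest factor summit of a dense cluster, the median distance to the nearest RAD21 summit was 425 bp under siRAD21 (97 clusters) and 160 bp under control siRNA (354 clusters). For SMC3 it was 780 bp under siRAD21 (66 clusters) and 183.5 bp under control siRNA (410 clusters), and for NIPBL 172 bp under siRAD21 (159 clusters) and 111 bp under control siRNA (507 clusters). CTCF summits lay farther off under both siRNAs, at medians of 842 bp under siRAD21 and 706 bp under control siRNA. H3K4me1 summits lay at medians of 816 bp under siRAD21 and 710.5 bp under control siRNA.

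The combination of RAD21, SMC3, CTCF and NIPBL at a dense cluster differed between the siRNAs, and much of the difference went with the length of the lists. With all peaks, 295 dense clusters (51.8%) had none of the 4 under siRAD21 and 23 (4.04%) had none under control siRNA, beside 71.6% of all clusters under siRAD21 and 53.5% under control siRNA. RAD21, SMC3 and NIPBL without CTCF were found together at 7 dense clusters (1.23%) under siRAD21 and at 184 (32.3%) under control siRNA, beside 0.42% of all clusters under siRAD21 and 4.75% under control siRNA. RAD21 or SMC3 was called at 120 dense clusters (21.1%) under siRAD21 and at 448 (78.7%) under control siRNA, beside 13.8% of all clusters under siRAD21 and 31.9% under control siRNA. NIPBL alone was found at 78 dense clusters (13.7%) under siRAD21 and at 69 (12.1%) under control siRNA, beside 6.11% of all clusters under siRAD21 and 9.4% under control siRNA. Under neither siRNA did 74 dense clusters have a RAD21, SMC3 or CTCF peak. The same count over all clusters was not made, so the 74 cannot be read as a feature of dense clusters.

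At equal list lengths, RAD21 or SMC3 was called at 21.1% (17.8 to 24.7) of dense clusters under siRAD21 and at 19.0% (15.8 to 22.4) under control siRNA. The state of RAD21, SMC3 and NIPBL without CTCF was then found at 7 dense clusters under siRAD21 and at 6 under control siRNA. Other states still differed at equal length. NIPBL alone was found at 78 dense clusters (13.7%) under siRAD21 and at 311 (54.7%, 50.5 to 58.8) under control siRNA, and none of the 4 at 295 (51.8%, 47.7 to 56.0) under siRAD21 and at 100 (17.6%, 14.5 to 21.0) under control siRNA. CTCF alone was found at 53 dense clusters under siRAD21 and at 14 under control siRNA, and all 4 proteins at 12 under siRAD21 and at 39 under control siRNA. Over all clusters the share with none of the 4 was 71.6% under siRAD21 and 71.8% under control siRNA at equal length. With NIPBL alone it was 6.11% under siRAD21 and 12.3% under control siRNA, and with CTCF alone 6.73% and 4.98%. With all 4 proteins it was 0.96% under siRAD21 and 1.44% under control siRNA, and with RAD21 or SMC3 13.8% and 9.75%. With RAD21, SMC3 and NIPBL without CTCF it was 0.42% under siRAD21 and 0.089% under control siRNA.

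RAD21 was found again under siRAD21 at 81 of the 354 dense clusters that had it under control siRNA (22.9%, 18.6 to 27.6). It was found under siRAD21 and not under control siRNA at 16 clusters, and under neither at 199. Where a control CTCF peak overlapped the cluster, RAD21 was found again at 53 of 132 clusters (40.2%, 31.7 to 49.0). Without a control CTCF peak it was found again at 28 of 222 (12.6%, 8.55 to 17.7).

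Taken peak by peak, 22.0% (17.9 to 26.5) of the 373 control RAD21 peaks at dense clusters were overlapped by a siRAD21 RAD21 peak, against 38.1% (36.9 to 39.2) of those at clusters of 1 to 3 factors and 46.6% of all control RAD21 peaks. Peaks were then compared within 5 strata of strength, since weak peaks are found again less often, and the difference, dense minus 1 to 3 factors, was −7.18 points (−10.7 to −3.62). Among peaks that no control CTCF peak overlapped, the difference at like strength was 1.45 points (−2.64 to 5.54). SMC3 gave 13.1% at dense clusters and 23.0% at clusters of 1 to 3 factors, beside 28.4% of all its control peaks, with a difference at like strength of −4.83 points (−7.57 to −2.09) and, without CTCF, of 0.61 points (−2.12 to 3.34). For NIPBL the shares were 24.7% at dense clusters and 20.2% at clusters of 1 to 3 factors, beside 17.4% of all its control peaks. For CTCF they were 60.8% at dense clusters and 70.1% at clusters of 1 to 3 factors, beside 63.1% of all its control peaks, and for H3K4me1 93.6% and 88.3%, beside 74.3%. The intervals of the differences at like strength reached 0 for NIPBL, CTCF and H3K4me1.

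A factor was called retained in a cluster when a siRAD21 peak of the same factor overlapped one of its control peaks there, and lost when no such peak was called, which does not show that the factor was absent. Over all 2310 pairs of a factor and a dense cluster, 798 were retained (34.5%, 32.6 to 36.5). The background over all clusters was 30.8%, and clusters of 1 to 3 factors gave 30.6% (30.1 to 31.0).

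Among the 4 common factors, HNF4A was retained in 222 of 543 dense clusters (40.9%, 36.7 to 45.2), where 33.4% of all its control peaks were retained. JUND was retained in 280 of 528 (53.0%, 48.7 to 57.4), where 35.1% of all its control peaks were. KLF5 was retained in 81 of 534 (15.2%, 12.2 to 18.5), beside 10.2% of all its peaks, and MYC in 172 of 562 (30.6%, 26.8 to 34.6), beside 28.9%. Of the less common factors, REST was retained in 24 of 50 dense clusters (48.0%, 33.7 to 62.6), beside 69.1% of all its peaks, and RFX2 in 19 of 93 (20.4%, 12.8 to 30.1), beside 13.2%. The tags of the siRAD21 library over those of the control library were 2.02 for JUND, 1.02 for MYC, 0.619 for REST, 0.558 for HNF4A, 0.481 for RFX2 and 0.355 for KLF5, and the part of depth in the order of the factors was not tested. Dense and other clusters were compared within the same pair of libraries, and the part of depth in that comparison was not tested either.

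At like peak strength, JUND was retained more often and MYC less often in dense clusters than in clusters of 1 to 3 factors. The strongest JUND peak of the cluster was retained in 52.8% of dense clusters and 32.8% of clusters of 1 to 3 factors, a difference of 14.0 points at like strength (9.55 to 18.5). Without strata, the JUND share climbed with the number of factors, at 20.7%, 38.8% and 44.7% of clusters of 1, 2 and 3 factors. In the weakest of 5 strata of the JUND list, 27 of 61 peaks in dense clusters (44.3%) and 195 of 849 in other clusters (23.0%) were retained, while in the strongest stratum these were 127 of 193 (65.8%) and 414 of 738 (56.1%). For MYC the shares were 29.7% in dense clusters and 28.9% in clusters of 1 to 3 factors, and the difference at like strength was −7.58 points (−11.3 to −3.83). Without strata, the MYC share was 30.9%, 27.6% and 25.1% in clusters of 1, 2 and 3 factors, so that of 3-factor clusters was below that of dense clusters. In its strongest stratum 87 of 196 peaks were retained in dense clusters (44.4%) and 1530 of 2485 in other clusters (61.6%), and in its weakest 8 of 44 (18.2%) and 293 of 2459 (11.9%). Dense clusters were not compared at like strength with 3-factor clusters alone.

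For HNF4A, KLF5, REST and RFX2 the intervals of this difference reached 0, at 1.36 points (−2.18 to 4.89), −0.71 (−3.60 to 2.17), −3.13 (−12.4 to 6.12) and 2.73 (−4.29 to 9.75), but not under every other setting. Within strata of fold enrichment the difference was 9.02 points (5.19 to 12.8) for HNF4A and 7.33 (0.67 to 14.0) for RFX2. It was −9.68 points (−16.7 to −2.67) for KLF5 at equal numbers of the strongest factor peaks, and −8.49 (−16.7 to −0.30) for REST at a joining gap of 500 bp. Without strata, the strongest HNF4A peak was retained in 40.1% of dense and 40.6% of 3-factor clusters. For KLF5 these shares were 14.0% and 13.2%, for REST 48.0% and 61.0%, and for RFX2 20.4% and 24.2%.

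The MYC difference turned with the measure of strength and with the filter on control peaks. It was −0.30 points (−4.13 to 3.54) within strata of fold enrichment, −1.65 (−11.8 to 8.48) in clusters rebuilt without JUND and −5.07 (−16.8 to 6.65) among control peaks with a score of at least 100. Among control peaks with an FDR under 5%, which left 17 dense clusters, it was 30.4 points (10.9 to 49.9). The JUND difference was 4.51 points (0.25 to 8.77) when summits had to lie within 250 bp, 3.83 (−8.69 to 16.3) among control peaks with a score of at least 100, and 2.21 (0.05 to 4.36) when only siRAD21 peaks with an FDR under 5% counted.

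**Figure D2:**
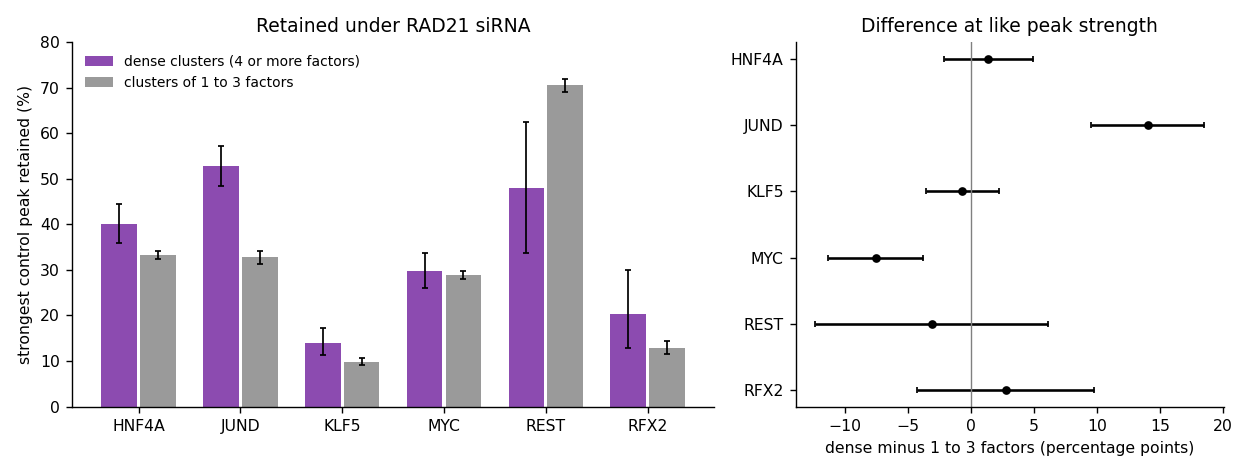
Left, share (%) of clusters in which the strongest control peak of a factor was overlapped by a siRAD21 peak of that factor, for dense clusters (purple) and clusters of 1 to 3 factors (grey). Right, the difference, dense minus 1 to 3 factors, in percentage points within 5 strata of peak strength; bars are 95% counting intervals, and those of JUND (14.0) and MYC (−7.58) do not reach 0.

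Most dense clusters kept some factors and lost others. None was retained in 159 of the 569 clusters (27.9%), 1 in 157, 2 in 148, 3 in 77, 4 in 26 and 5 in 2, and every factor of the cluster was retained in 22 (3.87%). Strength was measured as the median percentile of a cluster's factors in their control lists. It was higher in clusters that retained more factors, with a median of 57.5 where none was retained and 75.7 where 3 were.

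Within the 432 clusters of HNF4A, JUND, KLF5 and MYC alone, every possible pattern of retained factors occurred, several of them rarely. None of the 4 was retained in 128 clusters (29.6%, 25.4 to 34.2). JUND alone was retained in 63, HNF4A with JUND in 49, HNF4A with JUND and MYC in 40, HNF4A alone in 36 and JUND with MYC in 33. All 4 were retained in 19 (4.40%, 2.67 to 6.78). MYC alone was retained in 10 clusters, and KLF5 with MYC but neither of the others in 1. Of these 432 clusters, JUND was retained in 225, HNF4A in 171, MYC in 122 and KLF5 in 63.

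**Figure D3:**
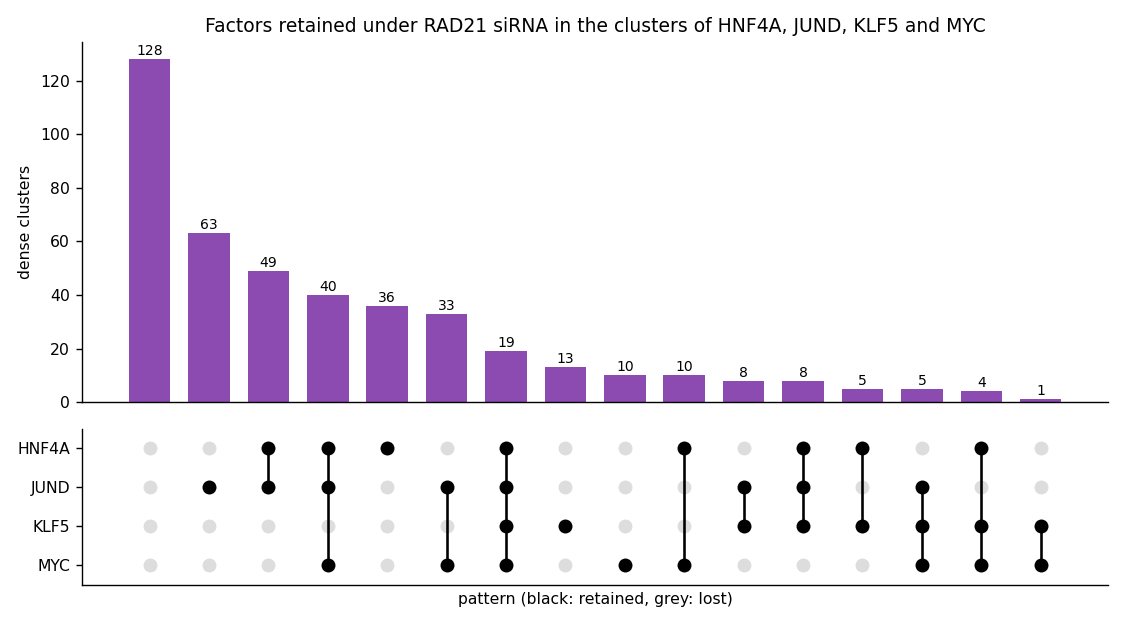
Number of dense clusters (bars, of 432 that held HNF4A, JUND, KLF5 and MYC alone) by which of the 4 factors were retained under RAD21 siRNA; black joined dots below a bar mark the retained factors and grey dots the lost ones. The highest bar, 128 clusters, is the pattern with no factor retained, and patterns with JUND but without KLF5 follow at 63, 49, 40 and 33 clusters, with HNF4A alone at 36.

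In most pairs, the factors stayed or left together more often than unrelated retention at the same single shares would give. The phi coefficient, which is 1 when 2 factors are always retained or lost together and 0 when their retention is unrelated, was above 0 for 12 of the 14 factor pairs that shared at least 20 dense clusters, with a median of 0.113. It was above 0 for all 6 pairs of HNF4A, JUND, KLF5 and MYC, with a median of 0.221, and clusters of 2 or 3 factors gave a median of 0.238 for the same pairs. These are descriptions across clusters that share the same libraries. All 4 factors were called against the same rabbit IgG library of each siRNA, and the part of that shared background was not tested.

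JUND and MYC formed the closest pair. Over 521 dense clusters with both, phi was 0.371, with both retained in 128, JUND alone in 148, MYC alone in 30 and neither in 215. JUND was retained in 81.0% of the clusters where MYC was retained and in 40.8% of those where MYC was lost, a difference of 39.0 points (31.2 to 46.8) at like JUND strength. MYC was retained in 46.4% of the clusters where JUND was retained and in 12.2% of those where JUND was lost. The phi of JUND and MYC was 0.363 when siRAD21 peaks needed an FDR under 5%, a filter that left 718 of 12319 JUND and 936 of 7264 MYC peaks. With all peaks, phi was 0.385 in the 1624 clusters of 2 or 3 factors that held both, so the pairing was not particular to dense clusters.

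HNF4A followed with MYC (phi 0.278 over 536 clusters) and with JUND (0.260 over 503). HNF4A was retained in 62.0% of clusters where MYC was retained and in 32.0% where MYC was lost. KLF5 gave phi of 0.182 with MYC, 0.167 with HNF4A and 0.107 with JUND. It was retained in 24.8% of clusters where MYC was retained and in 10.7% where MYC was lost. With an FDR under 5% required of siRAD21 peaks, this order did not hold: phi was 0.133 for HNF4A and MYC, 0.135 for HNF4A and JUND, and 0.206 for JUND and KLF5.

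The pairs of REST or RFX2 with a common factor rested on fewer clusters, 32 to 86 a pair. Their phi was 0.191 for KLF5 and REST (32 clusters), 0.119 for JUND and REST (38), and between 0.048 and 0.078 for MYC and REST and for RFX2 with HNF4A, JUND and MYC. It was −0.098 for HNF4A and REST (44 clusters) and −0.172 for KLF5 and RFX2 (72 clusters, both retained in 1). At like strength, the intervals of 3 of these differences did not reach 0, but they are too narrow. A stratum in which all or none were retained adds no error to them. In the strongest REST stratum, for example, 6 of 6 peaks in dense clusters were retained. HNF4A was retained more often where RFX2 was retained than where RFX2 was lost, by 16.7 points (0.84 to 32.6). REST was retained less often where HNF4A was retained, with a difference of −18.7 points (−32.4 to −5.04), and RFX2 less often where KLF5 was retained, with −7.84 points (−15.2 to −0.45). None of these held in both directions. The reverse differences were 8.60 points (−6.14 to 23.3) for RFX2 by HNF4A and −11.6 (−25.5 to 2.32) for KLF5 by RFX2. That for HNF4A by REST had the other sign, at 7.60 points (−12.9 to 28.1).

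**Figure D4:**
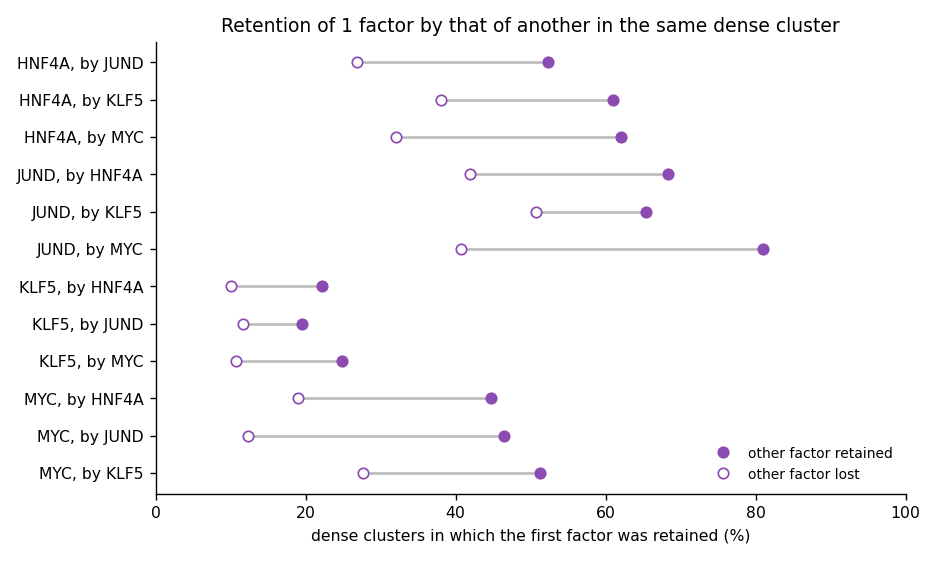
Share (%) of dense clusters in which the first factor of a pair was retained, where the second factor was also retained (filled) or lost (open), for the 12 ordered pairs of HNF4A, JUND, KLF5 and MYC. The filled point lies right of the open one in all 12, and the widest gap is that of JUND by MYC (81.0% with MYC retained, 40.8% with MYC lost).

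Retention of the factors also differed with the RAD21 calls at the cluster. In the 81 dense clusters with RAD21 under both siRNAs, 47.6% of all factors were retained (42.1 to 53.1). In the 273 with RAD21 under control siRNA only, 28.8% were (26.2 to 31.6), and in the 199 with RAD21 under neither siRNA 34.1% were (30.8 to 37.5). In the 16 with RAD21 under siRAD21 only, 70.1% were retained (57.7 to 80.7). The median strength of the clusters was 69.7, 67.0, 60.8 and 63.6 in these 4 states.

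At like strength, clusters with RAD21 under both siRNAs exceeded those with RAD21 under control siRNA only by 22.0 points for HNF4A (12.3 to 31.7), 23.2 for JUND (11.6 to 34.8) and 26.5 for MYC (14.9 to 38.1). KLF5 gave a difference of 7.73 points (−1.92 to 17.4). Between clusters with RAD21 under control siRNA only and clusters with it under neither, the difference was −12.7 points for MYC (−20.5 to −4.80), −11.3 for JUND (−20.4 to −2.13), −7.88 for HNF4A (−15.4 to −0.40) and 1.08 for KLF5 (−4.78 to 6.94). The intervals of both differences reached 0 for REST and RFX2.

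SMC3, the other cohesin subunit measured, gave part of the same picture. Clusters with SMC3 under both siRNAs exceeded those with SMC3 under control siRNA only by 28.9 points for MYC (16.1 to 41.8), 27.7 for HNF4A (17.3 to 38.1) and 15.8 for JUND (3.27 to 28.3), and by 5.61 for KLF5 (−5.13 to 16.3). Between SMC3 under control siRNA only and SMC3 under neither siRNA, the interval stayed below 0 for MYC alone, at −11.2 points (−19.8 to −2.53). It was −6.02 for HNF4A (−14.0 to 1.92), 0.55 for JUND (−9.02 to 10.1) and 0.43 for KLF5 (−6.13 to 6.99). For REST and RFX2 the intervals of both SMC3 differences reached 0.

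In the 146 clusters with NIPBL under both siRNAs 56.5% of factors were retained (52.4 to 60.5), and in the 361 with NIPBL under control siRNA only 25.4% were (23.2 to 27.7). At like strength this difference was 42.2 points for MYC (33.3 to 51.1), 32.8 for JUND (24.2 to 41.4), 21.7 for HNF4A (13.4 to 30.1) and 19.9 for KLF5 (12.4 to 27.4). Between NIPBL under control siRNA only and NIPBL under neither siRNA, it was −14.1 points for HNF4A (−26.1 to −2.06), and the intervals of the other 5 factors reached 0. Whether the splits by NIPBL, RAD21 and SMC3 differ in width was not tested.

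With CTCF under both siRNAs 38.6% of factors were retained (34.1 to 43.2, 114 clusters), and with CTCF under control siRNA only 36.6% were (30.9 to 42.6, 68 clusters). At like strength the intervals of this difference reached 0 for all 6 factors. With CTCF under siRAD21 only 51.5% were retained (41.3 to 61.6, 25 clusters), and with CTCF under neither siRNA 31.7% were (29.3 to 34.2, 362 clusters). KLF5 was retained more often with CTCF under control siRNA only than with CTCF under neither, by 10.5 points at like strength (0.20 to 20.7), and the intervals of the other 5 factors reached 0. RAD21, SMC3, NIPBL and the 4 common factors were all called against the rabbit IgG libraries and CTCF against goat IgG, and the part of that in these splits was not tested.

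Few dense clusters were dense in the siRAD21 lists as well. At 140 dense clusters no siRAD21 peak of any of the 6 factors was found, while peaks of 4 factors were found at 35, and peaks of 5 factors at 6. The same joining rule applied to the siRAD21 lists gave 438 clusters of at least 4 factors among 23062. Of these, 40 overlapped a control dense cluster, which was 9.13% of the siRAD21 dense clusters and 7.03% of the control ones. Neither the 140 nor the 40 could be set beside a count over all clusters, which was not made. Over all control peaks, 10.2% of KLF5 and 69.1% of REST peaks were retained, the lowest and highest shares of the 6 factors. HNF4A, JUND, KLF5 and MYC alone made up 230 of the siRAD21 dense clusters (52.5%), and HNF4A, JUND, MYC and REST 75 (17.1%), against 432 (75.9%) and 14 (2.46%) of the control dense clusters. The siRAD21 list held 0.229 times the control peaks for KLF5, 0.535 for MYC, 0.557 for RFX2, 0.637 for HNF4A, 1.07 for REST and 2.63 for JUND. The part of list length in these combinations was not tested.

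Some siRAD21 peaks lay in dense clusters that lacked that factor under control siRNA. A siRAD21 JUND peak overlapped 23 of the 41 dense clusters without a control JUND peak (56.1%, 39.7 to 71.5), against 38.1% (35.1 to 41.2) of the 3-factor clusters without one, with a siRAD21 JUND library of 2.02 times the control tags. For MYC this was 2 of 7 dense clusters (28.6%, 3.67 to 71.0) against 14.4% of 3-factor clusters, for HNF4A 5 of 26 (19.2%, 6.55 to 39.4) against 13.3%, and for KLF5 2 of 35 (5.71%, 0.70 to 19.2) against 1.4%. For RFX2 it was 7 of 476 (1.47%) against 1.48%, and for REST 6 of 519 (1.16%) against 1.43%.

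Single clusters give the calls at the level of peaks. The 14 named clusters, given in the hg18 build and labelled A to N, were chosen by strength within a kind, except E and F, which retained the most factors, and N, the widest. Clusters G and H were the strongest of those that retained none, so what was retained in E to H is fixed by the choice. Of the 37 retained factors in the 14 clusters, 7 had siRAD21 and control summits more than 250 bp apart. Which genes lie there was not analysed here. Cluster J (chr18:53027841-53030336) was the strongest cluster of HNF4A, JUND, KLF5 and MYC, with a strength percentile of 98.0. Its HNF4A peak held 62 tags at a score of 215.22 under siRAD21 and 175 tags at 1400.18 under control siRNA, and the summits lay 49 bp apart. JUND (53 tags), KLF5 (69 tags) and MYC (38 tags) had peaks there under control siRNA only. RAD21 (58 tags), SMC3 (91 tags) and NIPBL (77 tags) were likewise called under control siRNA only, with summits within 50 bp of the HNF4A summit. The broad H3K4me1 peak was found under both siRNAs, with 342 tags under siRAD21 and 511 under control siRNA.

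Cluster K (chr6:138448914-138452126) had no RAD21, SMC3 or CTCF peak under either siRNA. JUND was found with 92 tags under siRAD21 and 107 under control siRNA, and MYC with 38 tags under siRAD21 and 121 under control siRNA. NIPBL was found with 30 tags under siRAD21 and 180 under control siRNA. HNF4A (80 tags) and KLF5 (132 tags) were called under control siRNA only. The siRAD21 JUND summit lay 878 bp from the control JUND summit, so the overlapping peaks did not share a summit, and the MYC summits lay 240 bp apart.

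Cluster A (chr17:35507330-35512172), the strongest with 5 factors, had RAD21, SMC3 and CTCF calls under siRAD21 only. Its RAD21 peak held 36 tags, its SMC3 peak 23 and its CTCF peaks 17 and 12 under siRAD21, with no call of the 3 under control siRNA. HNF4A was found with 91 tags under siRAD21 and 220 under control siRNA, JUND with 169 under siRAD21 and 94 under control siRNA, and MYC with 99 under siRAD21 and 267 under control siRNA. KLF5 was retained as well, and RFX2 was called under control siRNA only, with 21 tags.

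Clusters E (chr1:33456651-33461205) and F (chr2:120870455-120876944) retained all 5 of their factors, HNF4A, JUND, KLF5, MYC and REST. In cluster E, RAD21 was found with 15 tags under siRAD21 and 249 under control siRNA, and CTCF with 15 tags under siRAD21 and 207 under control siRNA, while SMC3 and NIPBL were called under control siRNA only. The RAD21 summit lay at 196 bp under siRAD21 and at −1112 bp under control siRNA from the control JUND summit, so the RAD21 tags come from different summits. The MYC summit of cluster E lay at −201 bp under siRAD21 and at 998 bp under control siRNA from the control JUND summit, so that its retained MYC peaks overlapped at their edges without sharing a summit, and the HNF4A summits lay 627 bp apart. In cluster F, REST was found with 71 tags under siRAD21 and 107 under control siRNA, and SMC3 was called under control siRNA only.

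Clusters G (chr16:22150756-22152645) and H (chr17:52538499-52542844) were the strongest in which no factor was retained. Called in cluster G under control siRNA only were HNF4A (101 tags), JUND (41), KLF5 (76), MYC (50), RAD21 (45) and NIPBL (74), and its H3K4me1 peak held 106 tags under siRAD21 and 200 under control siRNA. In cluster H the same 4 factors and NIPBL (140 tags) were called under control siRNA only. CTCF held 85 tags under siRAD21 and 230 under control siRNA there, with its summit at −985 bp under siRAD21 and at −970 bp under control siRNA from the control JUND summit.

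**Figure D5:**
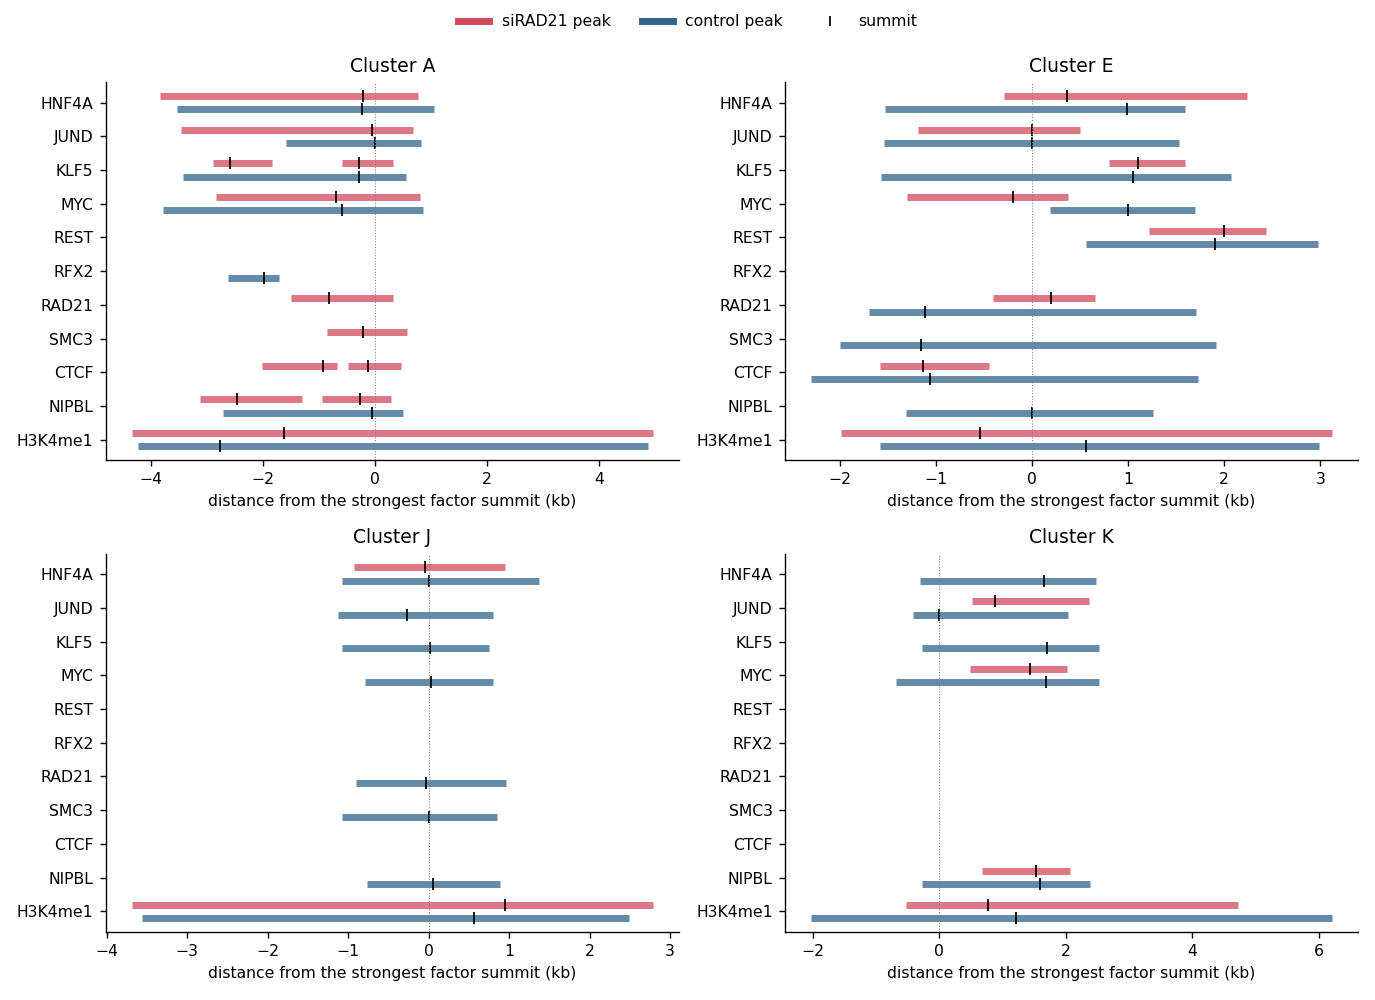
Peaks of the 6 factors and 5 other targets in clusters A, E, J and K, as bars along the distance (kb) from the summit of the control factor peak with the highest rank in its list, set at 0; red bars are siRAD21 peaks, blue bars below them control peaks and black ticks the summits. Cluster J has red bars for HNF4A and H3K4me1 alone, cluster K for JUND, MYC, NIPBL and H3K4me1, and cluster A has RAD21, SMC3 and CTCF bars in red only.

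The other named clusters show further combinations. Cluster I (chr3:52295580-52300626) had RAD21, SMC3 and CTCF under both siRNAs and retained HNF4A and JUND. Cluster B (chr19:13810455-13820874) retained JUND, MYC and RFX2 of 5 factors, and its RFX2 peak, the strongest of the control RFX2 list, held 23 tags under siRAD21 and 142 under control siRNA. Cluster C (chr10:132610747-132619919) retained KLF5 and REST of 5 factors, with REST at 481 tags under siRAD21 and 663 under control siRNA in its stronger peak. Cluster D (chr12:123964045-123969305) retained JUND, KLF5 and MYC of 5 factors, with the JUND summits 2428 bp apart. Clusters L (chr19:11406435-11408611) and M (chr19:14352304-14356848) led the HNF4A, KLF5, MYC and RFX2 and the JUND, KLF5, MYC and RFX2 combinations and each retained 3 of 4 factors. The widest, cluster N (chr8:145077356-145099606), spanned 22251 bp with 10 control peaks of 4 factors, all 4 of which were retained.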

How the data were processed

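ChIP-seq peak lists of 11 targets under RAD21 siRNA and control siRNA were analysed, 1 library each, 22 of 28 libraries; the other 6 were IgG. Groups came from titles and descriptions. The labels' siRNA tag disagrees with these: it gives RAD21 for CTCF under siRAD21, but RAD with a higher number for each further siRAD21 library. CASAVA 1.4, BWA, MACS 1.4 and hg18 are named in the submitters' processing notes. The authors called peaks in each library with MACS 1.4.0rc2 at a p cutoff of 1e-05 and 1 kept tag per position, per the file headers, against IgG of the same siRNA, from goat for CTCF and RFX2 and from rabbit for the others.

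The deposited columns hold start, end, length and summit (positions in bp), a count of tags, a score (−10 × log10 p, at least 50), a fold enrichment (a linear ratio) and, per the file headers, values under 9 names for 10 columns. The last deposited column was taken to be an FDR in percent because, in all 22 files, as many values lay under 5 as the labels state; column 9 was not used. Scores, folds and FDRs are the authors' own and served to rank or filter peaks within a list.

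Control factor peaks were joined at gaps of up to 1000 bp, and overlap meant at least 1 bp. The intervals of shares are Clopper-Pearson intervals. Differences at like strength are Mantel-Haenszel differences over 5 strata of a control list by score, for the strongest peak of each factor and cluster. Strata with all or none retained add no error to the intervals of these differences, which are too narrow where clusters are few. Python 3.11.15, pandas 2.3.3 and scipy 1.17.1 were used, and the code was tested on simulated peaks. The dense clusters and lists were chosen with earlier results of these data known. Clusters were named by strength, the median percentile of their factors: the 4 strongest with most factors, the 2 with most and the 2 strongest with no factors retained, the strongest of 3 cohesin states and of the 4 most frequent combinations, and the widest. Alternatives changed joining, overlap, peak filters, list lengths, strata and factors. Sequences and genes were not used here, as the reference tables were of another build.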

Additional observations from a re-analysis of the deposited data

How the results depend on the processing

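With 1 library per target and siRNA, no replicate could be left out. No paired analysis was possible because the labels give no replicate numbers. Within the counting interval of the reported share lay 4 of 10 alternative values of the RAD21 share under siRAD21, 3 of 11 of that under control siRNA and 5 of 12 of the share of factors retained. The number of clusters stayed within 1.5 times in 3 of 7. The medians over factors and over pairs have no interval of their own. Of their values, 11 of 15 median differences lay within the median half-width of the 6 factors' intervals, and 11 of 11 median phi within a Fisher interval at the median number of clusters per pair. A joining gap of 500 or 2000 bp moved none of these 6 results. The number of dense clusters was 61 with control scores of at least 100, 17 with control FDR under 5% (which leaves no JUND peak and too few clusters for phi), 75 without JUND and 39 without MYC.

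The RAD21 share under siRAD21 and under control siRNA was 41.2% and 52.9% at control factor FDR under 5%, 11.1% and 53.3% with summits within 250 bp, 26.7% and 56.0% without JUND, 20.5% and 53.8% without MYC, 10.1% and 57.4% without clusters at control CTCF peaks, and 8.61% and 50.3% for RAD21 peaks with FDR under 5%. The control share was 70.5% with control scores of at least 100 and 18.3% with the control RAD21 list cut to the siRAD21 length. The share was lower under siRAD21 in all 10 settings that gave both.

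The share of factors retained (34.5%) was 32.4% with joined summits, 46.5% with control scores of at least 100, 61.8% at control FDR under 5%, 26.5% with summits within 250 bp, 42.7% without MYC, 18.1% with siRAD21 scores of at least 100 and 14.7% with siRAD21 FDR under 5%. The median difference at like strength over factors (0.32 points) ranged from −3.79 to 7.56. It was 5.54 without strata, 5.15 within strata of fold enrichment, 7.56 at control FDR under 5% and 6.49 without MYC. The JUND difference was above 0 in all 14 settings with JUND, and the MYC difference in 2 of 15. The interval lay above 0 in 13 of 14 settings for JUND, 5 of 16 for HNF4A, 2 of 16 for REST, 1 of 16 for KLF5, 1 of 16 for RFX2 and 1 of 15 for MYC. It lay below 0 in 10 of 15 settings for MYC, 3 of 16 for REST and 1 of 16 for KLF5. The median phi stayed between 0.075 and 0.194, and the JUND and MYC phi between 0.229 and 0.513. The cause of these moves was not tested. The lists of RAD21, SMC3, CTCF, NIPBL and H3K4me1 at equal length and the filters on siRAD21 and RAD21 peaks were chosen after seeing the data.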
